A study of Mus musculus with 3 samples.

Results

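The response of mouse bone-marrow dendritic cells to tumour necrosis factor (TNF-alpha) and type II collagen was read by setting the stimulated array (tDC) against the array of the immature culture (imDC). A gene was a member if its probe had a detection p under 0.01 on at least 1 of these 2 arrays, which gave 7885 of the 16593 named genes of the array, against 8055 detected on at least 1 of the series' 3 arrays. All cultures were grown from marrow of DBA mice aged 6 weeks, kept for 8 days in medium that held GM-CSF (20 ng/ml) plus interleukin-4 (2 ng/ml). The imDC culture had no stimulus named in the labels. The tDC culture, labelled semi-mature or tolerogenic, also received 10 ng/ml of TNF-alpha plus 50 µg/ml of type II collagen, for 4 h. The mDC culture, labelled fully mature and used here only for values side by side, received lipopolysaccharide at 1 µg/ml with the same collagen for 24 h. TNF-alpha and collagen were given together and the labels state no hour of harvest for imDC, so the effects of the cytokine, the collagen and the time in culture cannot be told apart. The labels do not say how many mice gave the marrow. There was 1 array for each state, so differences between arrays are given as folds with no test, and the spread between cultures is unknown.

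Dendritic cells take up antigen, and on maturation they change their receptors, secrete cytokines and present peptides to T cells. TNF binds receptors that assemble a complex of TRAF, RIPK and ubiquitin ligase proteins, which activates the IkB kinases. These free NF-kB factors from their IkB inhibitors, and NF-kB then switches on genes of inflammation together with genes of its own inhibitors, which close the loop.

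The imDC array detected 11006 of 25697 probes and the tDC array 10764, and the median signals were 132 and 125 intensity units. Of the 7885 genes, 7406 were detected on both arrays, 185 on the tDC array alone and 294 on the imDC array alone. A gene was counted as higher or lower at a difference of at least 1 on the log2 scale, which is 2-fold. By that rule 227 genes (2.88%) were higher in tDC and 160 (2.03%) were lower, where genes detected on 1 array entered by a lower bound ("at least"), set against the dimmest detected signal of the other array or the probe's own signal there. Over the genes detected on both arrays the median log2 difference was -0.00, with 50.4% of genes below 0, and 80.6% of them lay within 0.5 of 0. The larger differences ran upward. At 4-fold, 29 genes were higher and 8 lower, and at 8-fold, 7 were higher and 0 lower. RNA came from cultures as a whole, in which fewer cells of a type and less RNA per cell cannot be told apart.

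**Figure D1:**
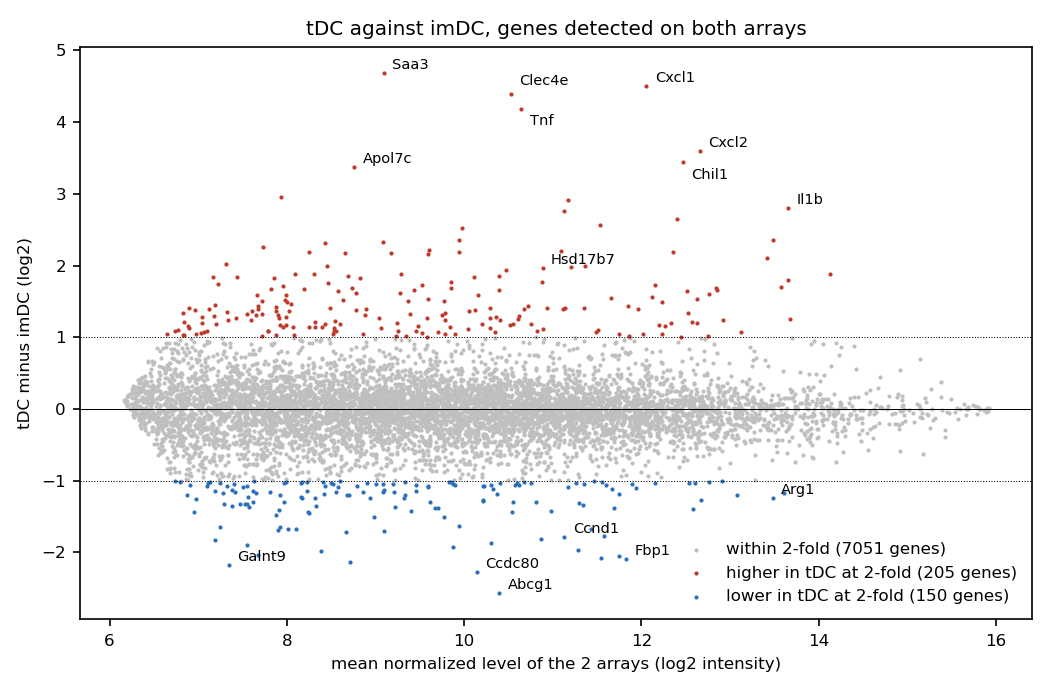
The difference between the tDC and imDC arrays (vertical axis, log2) is plotted against the mean level of the gene on both (horizontal axis, log2), with 1 point for each of the 7406 genes detected on both arrays, coloured where the difference reached 2-fold. Most points lie along 0, and the 7 genes above 8-fold (a log2 difference of 3) are all on the upper side.

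The only repeat measurement within this pair of arrays is a second probe for the same gene. For 1846 genes with 2 probes detected on both arrays, the 2 log2 differences disagreed by a median of 0.12, and the 95th percentile of the disagreement was 0.44. Of 68 genes at 2-fold with such a second probe, 68 had a second difference of the same sign and 53 also reached 2-fold. The disagreement was larger where the second probe was dim. Its median was 0.19 over the 717 genes whose second probe lay in the level range of the 1852 dimmest genes. It was 0.08 over the 226 genes whose second probe lay in the range of the 1852 brightest. These values describe probe scatter within a hybridization and say nothing of how another culture would vary.

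**Figure D2:**
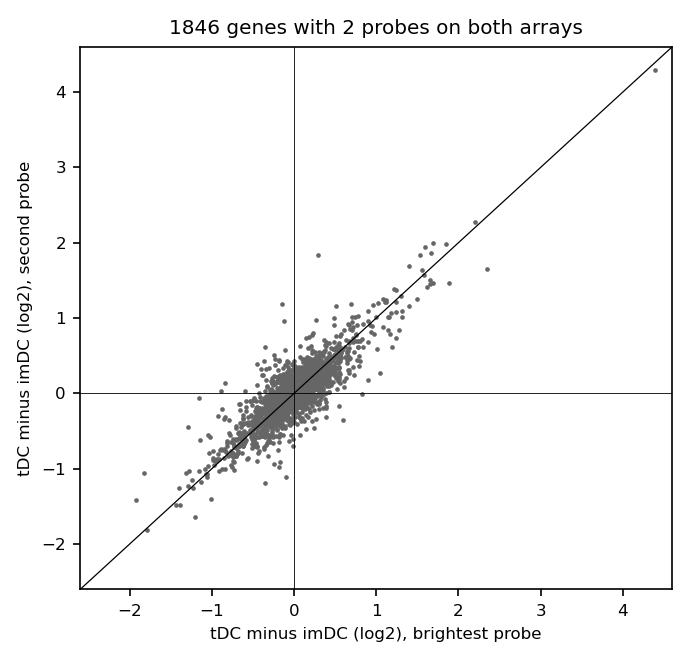
For 1846 genes with 2 detected probes, the log2 difference between tDC and imDC by the brighter probe (horizontal axis) is set against that by the second probe (vertical axis), with the line of equality. Most points lie along the line, the uppermost being Clec4e at 4.39 and 4.30, but some are well off it, such as Bcl2 at -1.29 and -0.44 and Plxdc1 at -1.83 and -1.06.

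The 7 genes above 8-fold on both arrays were Saa3, Cxcl1, the lectin receptor gene Clec4e, Tnf, Cxcl2, Chil1 and the apolipoprotein L family gene Apol7c. Saa3, an acute-phase protein of the serum amyloid A family, had a signal of 203 intensity units in imDC and 2862 in tDC. That made it 25.7-fold higher in tDC by normalized level, and it read 54182 in mDC, so it was brighter still after lipopolysaccharide for 24 h. Cxcl1, a neutrophil-attracting chemokine, had signals of 1031 and 20684, a 22.7-fold difference. Cxcl2, a second ligand of the same receptor, had signals of 2028 and 23265, a 12.1-fold difference. Both chemokines were already bright in the immature culture. Ccrl2, a receptor-like protein that binds the chemoattractant chemerin, had signals of 982 and 6488 and was 7.53-fold higher.

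A stretch of the promoter of each of these 4 genes is shown because it holds the letters of an NF-kB site, GGNNTTTCC, read on either strand, in the 250 bases before a start given in RefSeq's promoter table. Clec4e, Tnf, Chil1, Apol7c and Schip1 had larger differences than Ccrl2 but are not shown. They gave no match in this window or had no promoter in that table. For Saa3 that start lies inside the gene's full span in RefSeq's gene table, so its stretch is not upstream of the whole gene. Sequences are from RefSeq, build GRCm38.p6, written 5′ to 3′ on the gene's strand, and capitals mark the match.
Saa3: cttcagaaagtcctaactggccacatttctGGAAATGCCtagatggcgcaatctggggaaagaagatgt
Cxcl1: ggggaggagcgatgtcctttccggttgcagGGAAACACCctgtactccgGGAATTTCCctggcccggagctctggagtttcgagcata
Cxcl2: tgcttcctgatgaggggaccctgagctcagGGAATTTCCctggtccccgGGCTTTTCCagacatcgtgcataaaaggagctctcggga
Ccrl2: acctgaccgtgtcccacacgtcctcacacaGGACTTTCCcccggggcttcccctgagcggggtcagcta
The stretches lie at chr7:46715825-46715893 on the minus strand for Saa3, chr5:90891126-90891213 on the plus strand for Cxcl1, chr5:90903773-90903860 on the plus strand for Cxcl2 and chr9:111057548-111057616 on the minus strand for Ccrl2. Cxcl1 and Cxcl2 each hold 2 matches, and the stretch GGAATTTCC occurs in both. No match shown overlaps a match of the other motifs searched. Among 27025 genes with a promoter in the RefSeq table, 5.62% held the motif in that window, and among 6519 of them measured on these arrays 6.52% did. It was held by 26 of 176 genes (14.8%) that were higher and by 9 of 121 (7.44%) that were lower. A match is a stretch of letters and not evidence of binding, and no match says only that the letters are not in this window.

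Of the acute-phase and antimicrobial list, 9 of 11 measured genes were higher and 0 lower. The median log2 difference was 1.59 over its members against -0.00 over all genes. Lcn2, which binds bacterial iron carriers, had signals of 5145 in imDC and 26482 in tDC, 5.12-fold higher. Hp, the haemoglobin scavenger haptoglobin, had signals of 556 and 2334, 5.11-fold higher, with log2 differences of 2.35, 1.66 and 2.03 by its 3 probes. Chil1, a chitinase-like secreted protein, had signals of 1888 and 19164, 10.9-fold higher. Fpr2, a formyl peptide receptor, was bright on both arrays, at 9327 and 34147, and 3.70-fold higher. Ptx3, a soluble pattern recognition protein, was dimmer at 213 and 433, and 3.01-fold higher by normalized level. Probes of the Saa and lysozyme families can bind transcripts of close relatives, so these values may mix family members. Chil1, Lcn2 and Camp are also neutrophil markers, and the summed signal of the 18 measured neutrophil markers was 108845 intensity units in imDC and 184235 in tDC. Their part in this list's difference was not tested.

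Of 15 proinflammatory cytokines measured, 7 were higher, 0 were lower, and the median was 0.93. The transcript of Tnf itself, the cytokine that had been added as protein, had signals of 491 in imDC and 6956 in tDC. It was 18.2-fold higher, and it stood at 9326 in mDC. Il1b, the secreted interleukin-1 beta, had signals of 4957 and 33827, 6.99-fold higher, and Il1a, its alarmin relative, had signals of 2305 and 13660, 6.27-fold higher. Il6, a cytokine of the acute-phase response, was dimmer, at 264 and 685, and 3.70-fold higher. Il12a, the p35 chain of interleukin-12, was detected on the tDC array alone, at 447 against 122, and was at least 5.32-fold higher, while mDC read 6489. Il23a, the p19 chain of interleukin-23, was also detected on tDC alone and was at least 2.80-fold higher. Csf2, Csf3, Ifnb1 and Il27, which encode colony-stimulating factors, interferon beta and an interleukin chain, were not above background on either array.

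CXC and CC chemokines were counted apart. Of 7 CXC chemokines measured, 4 were higher and 1 lower. The CXC median was 0.63 over the 5 detected on both arrays. Cxcl10, which attracts activated T cells, was detected in tDC alone, at 632 against 154, and was at least 8.08-fold higher. Cxcl14, a chemokine of resting tissues, went the other way, at 308 in imDC and 157 in tDC, 2.69-fold lower. Of 13 CC chemokines, 0 were higher or lower at 2-fold, against 2.88% higher and 2.03% lower over all genes. Of these 13, 10 lay below 0, with a median of -0.16. Ccl3, a ligand of inflammatory leukocyte receptors, had the largest CC difference, 0.87, from 14576 to 26877. Ccl17, a chemokine for T helper cells of the type driven by interleukin-4, was bright on both arrays at 48353 and 38720, with a difference of -0.29. Signals this high are near the scanner's limit, where the brightest value of this pair was 64635.6, so differences of such genes may be understated.

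Transcripts of the proteins that carry the signal from the TNF receptor to NF-kB mostly differed little between the arrays, as most genes did. Of 25 measured, 1 was higher (4%) and 0 lower, near the 2.88% and 2.03% of all genes. The median log2 difference was 0.17. The receptors themselves were dim: Tnfrsf1a, the main signalling receptor, had signals of 198 and 165 with a difference of -0.29, and Tnfrsf1b, the second receptor, 175 and 224 with 0.81. Adaptors and ligases included Traf2 at 0.14, Traf6 at 0.48, Birc2 at 0.22 and Rnf31 at 0.12. Traf1, an adaptor that NF-kB itself induces, had signals of 2520 and 3978 and a difference of 0.70. Birc3, another such target, was detected in tDC alone with a bound of 0.96. The kinase subunits Ikbkb and Ikbkg, which form the classical IkB kinase, differed by 0.13 and 0.53. Ikbke, an IkB kinase-related enzyme that also acts in interferon induction, was the exception, with 540 in imDC, 2487 in tDC and a 5.73-fold higher level. Ripk3, the kinase of necroptosis, was among the 8 of 24 genes below 0, at -0.42. Of the death complex, Fadd lay at -0.08 and the protease Casp8 at -0.10. Rbck1 and Sharpin, partners of Rnf31 in the linear ubiquitin ligase, lay at -0.16 and 0.29. The enzymes that remove ubiquitin, Otulin and Cyld, lay at -0.05 and 0.19. The kinase TAK1, encoded by Map3k7, lay at 0.23, with its partners Tab1 at -0.20, Tab2 at 0.34 and Tab3 at 0.31. Map3k14, the kinase of the alternative pathway, had 3474 and 3658 and a difference of 0.07. The adaptors Traf5 and Tank lay at -0.29 and 0.63.

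Transcripts of the NF-kB factors and their inhibitors were higher as a group. Of 9 measured, 7 were higher, 0 were lower and 9 of 9 lay above 0, with a median of 1.20. Among the subunits, Rel had signals of 508 in imDC and 1309 in tDC and was 3.15-fold higher. Relb, the subunit of the alternative pathway, had 1419 and 2623 and lay at 1.00, just short of the 2-fold line. Rela, the main transactivating subunit, had 4362 and 6325 and a difference of 0.54. Among the inhibitors, Nfkbia had signals of 4244 and 9635, 2.30-fold higher, and Nfkbie had 1172 and 2853, 2.70-fold higher, while Nfkbib was 2.03-fold higher. The nuclear IkB proteins act on NF-kB bound to DNA. Nfkbiz had the largest difference of the list, from 993 to 5992, 6.79-fold. Bcl3 was 2.63-fold and Nfkbid 2.11-fold higher. Nfkb2 was not above background on either array, and Nfkb1 was not analysed here.

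Of 24 NF-kB target and feedback genes, 11 were higher, 0 lower, and the median was 0.86. Tnfaip3, the ubiquitin-editing brake A20, had signals of 1470 in imDC and 5448 in tDC, 3.98-fold higher. Clec4e, a lectin receptor for mycobacterial glycolipid and dead cells, went from 434 to 6912, 21.0-fold, and its second probe gave a log2 difference of 4.30. Sod2, the mitochondrial superoxide dismutase, was 3.25-fold higher at 6859 and 22756. Tnfaip2 was 3.17-fold higher, and its further probes gave log2 differences of 1.87 and 2.00. Ninj1, an adhesion protein that ruptures dying cells' membranes, was 3.55-fold higher at 218 and 514. Of 44 measured genes of the NF-kB, cytokine and CXC chemokine lists with a promoter, 16 (36.4%) held the kB letters. These lists were composed of known NF-kB genes in part, so this share is no independent result.

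Other brakes on inflammatory signalling were also among the higher genes. Of 20 such genes, 4 were higher and 0 lower. The median was 0.20. Irak3, which blocks signalling from Toll-like receptors, had signals of 1340 in imDC and 4875 in tDC and was 3.94-fold higher. The MAP kinase phosphatases Dusp4, Dusp2 and Dusp16 were 2.46-fold, 2.37-fold and 2.27-fold higher. Of 18 AP-1, EGR and NR4A transcription factors, 2 were higher and 1 lower. The median was 0.30. Nr4a3, an orphan nuclear receptor of early responses, had signals of 168 and 352 and was 3.58-fold higher. Maff, a small Maf protein, was 2.49-fold higher. Klf4, a factor of monocyte differentiation, went from 1468 to 586, 2.61-fold lower, with 2 further probes at -1.49 and -1.36.

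**Figure D3:**
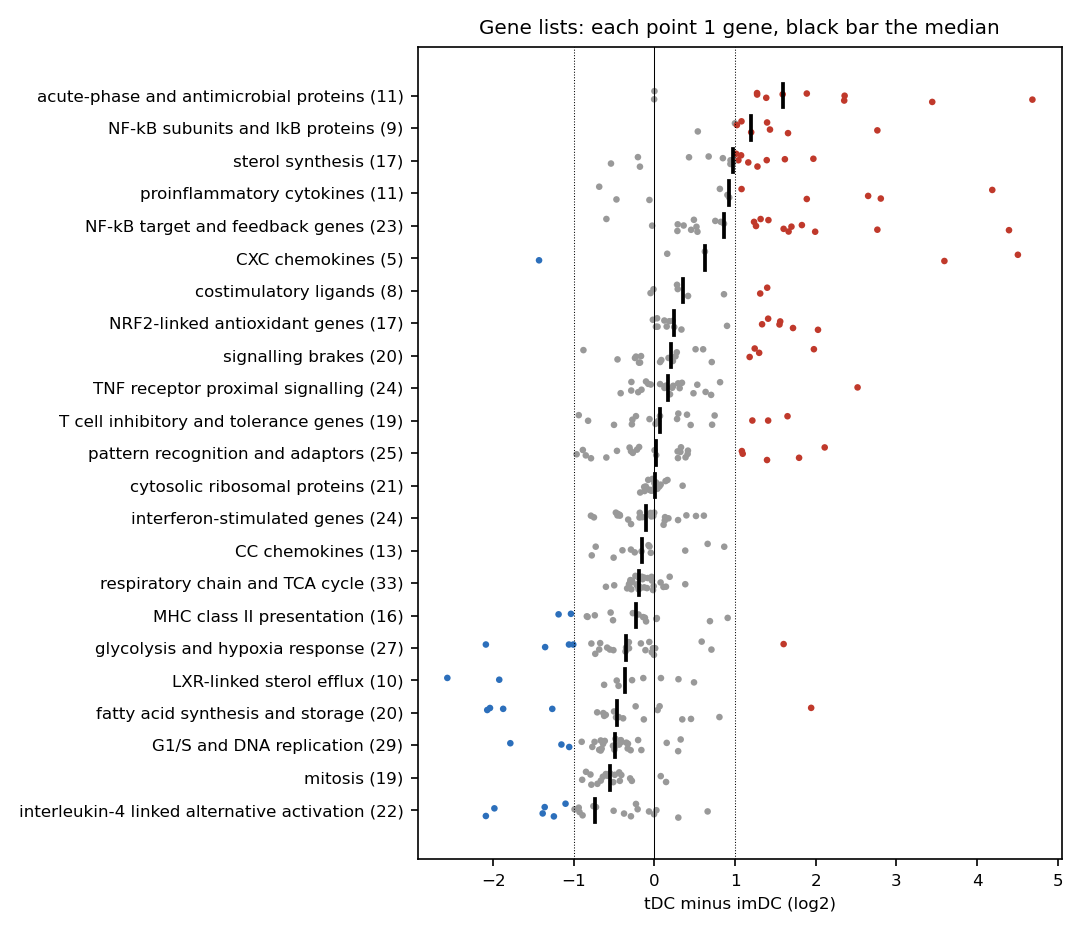
Log2 differences between tDC and imDC (horizontal axis) are shown for members of the main gene lists (rows) detected on both arrays, whose number stands in parentheses, with 1 point for each gene and a black bar at the list's median. Points at 2-fold or more are coloured. The acute-phase list (median 1.59) and the NF-kB list (median 1.20) lie farthest to the right, and the list of alternative activation (median -0.74) farthest to the left.

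Receptors for microbes and for uptake were found among both the higher and the lower genes. Of 25 pattern recognition genes, 5 were higher and 0 lower. The median was 0.02. Tlr2, the receptor of bacterial lipoproteins, had signals of 7038 in imDC and 24916 in tDC and was 3.47-fold higher. Cd14, a co-receptor for lipopolysaccharide, had 5363 and 23886, 4.32-fold higher. Nlrp3 and Nod2, cytosolic sensors, were 2.12-fold and 2.13-fold higher at low signals, but without background correction they fell short of 2-fold, with log2 differences of 0.61 and 0.89. Of 20 lectins and uptake receptors, 5 were higher and 2 lower. The median was -0.10. The neighbouring lectin receptors Clec4d and Clec4e were 4.55-fold and 21.0-fold higher, and Clec4a1, of the same family, went from 277 to 780, 4.00-fold. Clec10a, a galactose lectin, had 1106 and 455 and was 2.57-fold lower. Cd209a, the DC-SIGN relative, was detected in imDC alone, at 273 against 122, and was at least 2.32-fold lower. Cd207, the Langerhans cell lectin, was detected in tDC alone, at 312 against 114, and was at least 3.39-fold higher. Without the bound its log2 difference was 2.79, with 2.34 by its other probe. Mrc1, the mannose receptor, lay just inside 2-fold at -0.99, from 14084 to 7250.

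Costimulatory ligands, which second the antigen signal to T cells, were split between genes that differed and genes that did not. Of 9 measured, 2 were higher, 0 were lower and the median was 0.35. Cd40, the receptor through which T cells license dendritic cells, had signals of 2605 in imDC and 6593 in tDC. It was 2.64-fold higher, with further probes at 1.69 and 1.57 on the log2 scale, and read 16945 in mDC. Cd70, the ligand of CD27, was 2.48-fold higher at 224 and 396. Cd80 and Cd86, the ligands of CD28, differed by -0.01 and 0.28, with Cd86 at 11787 and 14459. Cd83, a maturation marker, had 9544 and 11824, a difference of 0.29. Icam1, the adhesion ligand, had 7156 and 13003 with 0.86, and Tnfsf4, the OX40 ligand, had -0.05. The remaining members were Slamf1 at 0.42 and Tnfsf18, detected in tDC alone, with a bound of 0.84.

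Genes of antigen presentation by MHC class II leaned to lower values. Of 16 genes measured, 0 were higher and 2 lower, with 12 below 0 and a median of -0.23. H2-DMa and H2-DMb1, the chains of the exchange factor that loads peptide, had signals of 6606 and 3290, and of 5244 and 2369. They were 2.05-fold and 2.28-fold lower. The class II beta chain H2-Ab1 had 26448 and 27198 with a difference of 0.02, and the invariant chain Cd74 had 50260 and 44528 with -0.14. Ciita, the master activator of class II genes, had 1130 and 753 with -0.54. Of 18 class I genes, 0 were higher or lower and the median was -0.05. Of 25 interferon-stimulated genes, 0 were higher or lower and the median was -0.10. Isg15, a ubiquitin-like protein of that set, had signals of 333 in imDC and 376 in tDC, and 6097 in mDC. Values of H2 genes are uncertain, because allele sequence varies between strains and affects binding to a probe.

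Of 19 genes linked to T cell inhibition and tolerance, 3 were higher, 0 were lower and the median was 0.07. Il1rn, the interleukin-1 receptor antagonist, had signals of 3428 in imDC and 10313 in tDC, 3.14-fold higher. Hmox1, the haem-degrading enzyme, was 2.66-fold higher, and Fas, the death receptor, 2.32-fold higher. Cd274, which encodes the inhibitory ligand PD-L1, had 14861 and 25645 with a difference of 0.75. Tgfb1 had 2844 and 2786, a difference of 0.01. Il10 and Ido2 were not above background on either array. Of 14 genes of dendritic cell migration, 3 were higher, led by Apol7c, at 233 and 1477, 10.3-fold, and including Lad1, an anchoring filament protein, 2.22-fold. Ccr7, the receptor that guides dendritic cells to lymph nodes, had 2863 and 3892, a difference of 0.47.

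Collagen was the second agent in the tDC culture. Of 7 measured genes in the list composed for collagen receptors and collagen-binding proteins, 0 were higher and 1 was lower, with a median of 0.10. Over all genes 2.88% were higher and 2.03% lower. The collagen receptors Ddr1, Ddr2, Itga2, Itga11, Mrc2 and Lair1 were not above background on either array. Itgb1, the shared beta chain of the collagen-binding integrins, had signals of 536 and 498 and a difference of 0.01, and Cd44 had 3428 and 3681 with 0.10. Oscar, an activating receptor that binds collagen, was near the detection limit at 161 and 165. The 1 lower gene was Cd93, a C-type lectin-like receptor that the list includes, at 1996 and 951 and 2.09-fold lower. Without background correction Cd93 fell short of 2-fold, with a log2 difference of -0.99. Whether it binds collagen was not examined. Of 16 matrix enzymes and their inhibitors, 3 were higher and 0 lower. Mmp9, a gelatinase, had 522 and 1418, 3.30-fold higher, Mmp2 was 2.26-fold higher and Serpinb2, an inhibitor of plasminogen activators, went from 293 to 933, 4.51-fold.

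Sterol synthesis is governed by SREBP2, which is held back when cell sterol is high, while LXR factors switch on sterol export. Of 17 sterol synthesis genes measured, 8 were higher, 0 were lower and 14 lay above 0, with a median of 0.98. At the start of the pathway, Hmgcs1, the HMG-CoA synthase, had signals of 6232 in imDC and 13087 in tDC, 2.11-fold higher, and 4996 in mDC. In the middle steps, Idi1, the isopentenyl isomerase, was 2.62-fold higher, Fdps, the farnesyl diphosphate synthase, had 3473 and 7002, 2.06-fold higher, and Sqle, squalene epoxidase, 2786 and 5478, 2.02-fold higher. Sqle's other probe gave 0.59 on the log2 scale. In the later steps, Cyp51 had 984 and 2114, 2.42-fold higher, Msmo1 had 361 and 843, 3.07-fold higher, and Hsd17b7 had 1101 and 3887, 3.92-fold higher. Insig1, which holds SREBP in the endoplasmic reticulum, was 2.24-fold higher by its brightest probe, with 0.79 and 0.81 on the log2 scale by its other probes.

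The other sterol genes stayed short of 2-fold. Stard4, a sterol carrier, lay at 0.98, and Srebf2, the gene of SREBP2, and Lss, which cyclises squalene epoxide, both lay at 0.94. Mvd lay at 0.85, Pmvk at 0.67 and Nsdhl at 0.43. The 3 members below 0 were Tm7sf2 at -0.18, Ebp at -0.20 and Dhcr7, the last enzyme of the pathway, at -0.54.

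A sterol element, TCACNCCAC on either strand, was held by the promoter of 1 of 14 sterol synthesis genes with a promoter in the RefSeq table and of 1.23% of all its genes. That gene was Hmgcs1, whose stretch at chr13:119690184-119690252, plus strand, is shown to set the element beside the levels above, with the match in capitals.
Hmgcs1: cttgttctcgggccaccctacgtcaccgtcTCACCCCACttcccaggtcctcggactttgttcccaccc

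Of 11 LXR-linked sterol efflux genes measured, 0 were higher and 2 lower, with 7 of the 10 detected on both arrays below 0 and a median of -0.36. Abcg1, a pump that exports cholesterol to lipoprotein particles, had signals of 3400 in imDC, 632 in tDC and 780 in mDC. Its 5.93-fold lower level was the largest difference downward among all genes detected on both arrays. Pltp, the phospholipid transfer protein, had 2001 and 562 and was 3.79-fold lower, with -1.42 by its second probe. Lpl, lipoprotein lipase, had 46563 and 30207 with a difference of -0.62, and Srebf1, an LXR target, -0.14. Nr1h3, the gene of LXR-alpha, lay at 0.08. Lpcat3 lay at -0.28, Smpdl3a at -0.47, Mertk at -0.44, Apoc2 at 0.30 and Apoe at 0.49, and Abcg4, detected in tDC alone, had a bound of 0.30. Abca1 was not above background on either array.

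**Figure D4:**
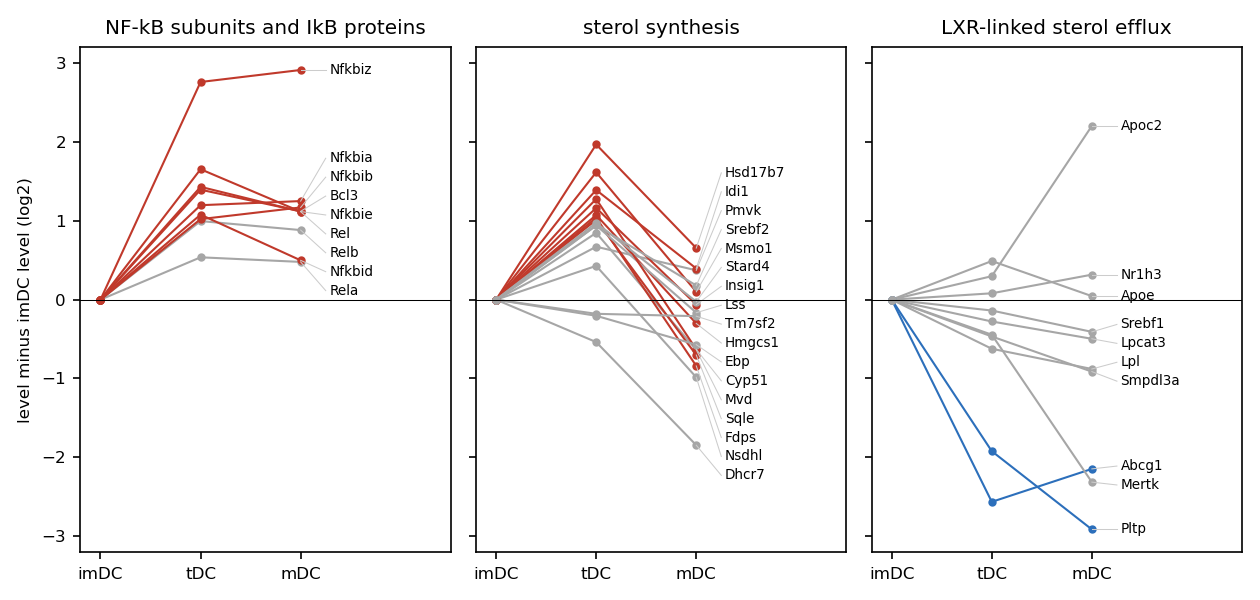
Levels relative to imDC (vertical axis, log2) on the imDC, tDC and mDC arrays (horizontal axis) are drawn as 1 line for each gene of the NF-kB, sterol synthesis and sterol efflux lists, coloured where tDC differed from imDC by 2-fold. The higher sterol synthesis genes are highest on the tDC array and lie nearer to or below the imDC level on the mDC array. Nfkbiz lies at 2.92 on the mDC array. The arrays are of separate cultures that differ in stimulus and hours, so the lines do not show a course in time.

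Among genes detected on both the imDC and the tDC array, 27 were at least 2-fold higher in tDC than in both other arrays, and for 25 of them mDC lay within 2-fold of imDC. They include 7 sterol synthesis genes (Cyp51, Fdps, Sqle, Msmo1, Hmgcs1, Hsd17b7 and Insig1), 1 cytokine (Csf1) and 0 NF-kB subunits or IkB proteins. The differences from imDC and from mDC share the tDC array, so they are given as values of these arrays. Hspa1a, an inducible heat shock protein, was detected on the tDC array at 1226, against 159 in imDC, and its level was at least 16.7-fold higher, with 241 in mDC. Hspa1a and Cd207, detected in tDC but not in imDC, are not counted among the 27. It was the only 1 of 20 heat shock and chaperone genes at 2-fold, and the list's median was 0.02. The near-identical Hspa1b was not analysed here, and the probe may read both.

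Fatty acid genes were lower more often than higher. Of 20 measured, 1 was higher and 4 lower, with a median of -0.46. Dgat2, which completes triglyceride synthesis, had signals of 861 in imDC and 2883 in tDC and was 3.84-fold higher. Scd1 and Scd2, the desaturases that make oleate, went from 2014 to 840 and from 2564 to 739, 2.41-fold and 3.67-fold lower. Lipn, a lipase, was 4.11-fold lower, and Daglb, a diacylglycerol lipase, was 4.21-fold lower by its brightest probe, though its other probe gave -0.27 on the log2 scale.

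Genes that interleukin-4 is known to induce in myeloid cells lay mostly below 0. Both cultures had received interleukin-4. Of 22 measured genes of alternative activation, 0 were higher and 6 lower, 19 lay below 0 and the median was -0.74. Arg1, arginase, had signals of 17457 in imDC and 7597 in tDC, 2.37-fold lower, and 1258 in mDC. Fbp1, a gluconeogenic enzyme, had 7636 and 1823, 4.26-fold lower. F13a1, a transglutaminase of coagulation, was 3.96-fold lower at 795 and 247, and Flt1, a receptor of the VEGF family, 2.15-fold lower at 5853 and 2748. Arg2, the mitochondrial arginase, went the other way, from 1166 to 3611, 3.40-fold higher. Of 9 genes of nitric oxide, arginine and itaconate metabolism, Arg2 was the only 1 higher and Arg1 the only 1 lower. Nos2, which competes with arginase for arginine, was not above background on either array.

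Genes of cell division were lower as groups, mostly by less than 2-fold. Of 29 G1/S and DNA replication genes, 0 were higher and 3 lower, 26 lay below 0 and the median was -0.49. Ccnd1, the G1 cyclin D1, had signals of 4239 in imDC and 1285 in tDC, 3.45-fold lower, with -1.82 and -1.52 on the log2 scale by 2 further probes. E2f2, an S-phase transcription factor, was 2.08-fold lower, and Tk1, thymidine kinase, 2.22-fold lower by its brightest probe with -0.06 by the other. Of 19 mitosis genes, 0 were higher or lower at 2-fold, yet 17 lay below 0 and the median was -0.55. Gadd45a, a stress-induced inhibitor of cell cycle progress, had 3425 and 7554 and was 2.23-fold higher, the only 1 of 17 cell cycle inhibitors and p53 targets at 2-fold.

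Of 28 genes of glycolysis and the hypoxia response, 1 was higher and 4 lower, with 23 of the 27 detected on both arrays below 0 and a median of -0.35. Pfkp, a phosphofructokinase, had signals of 10844 in imDC and 5619 in tDC, 2.01-fold lower, and Pdk1, which shuts pyruvate out of the mitochondrion, was 2.56-fold lower. Egln3, an oxygen-sensing hydroxylase, was 2.08-fold lower, while Slc2a6, a sugar transporter relative, had 4077 and 12380 and was 3.03-fold higher. Of 33 respiratory chain and TCA cycle genes, 0 were higher or lower, 28 lay below 0 and the median was -0.19. Ribosomal protein genes gave a measure of how still a large set could be. Of 21 measured, 0 were higher or lower, the median was 0.01 and the values lay between -0.18 and 0.35.

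Antioxidant genes linked to NRF2 were higher in part. Of 18 measured, 6 were higher and 0 lower, 16 of the 17 detected on both arrays lay above 0 and the median was 0.24. Srxn1, sulfiredoxin, had signals of 2752 in imDC and 7808 in tDC, 2.95-fold higher, with 1.64 and 1.60 on the log2 scale by further probes. Slc7a11, the cystine importer, had 3842 and 9416, 2.52-fold higher. Gclm, of glutathione synthesis, was 2.93-fold higher, Nqo1, a quinone reductase, 3.29-fold, and Txnrd1, thioredoxin reductase, 4.08-fold, the last from 171 to 401. Of 11 iron-handling genes, 3 were higher and 0 lower. Tfrc, the transferrin receptor, had 4046 and 8060 and lay at 1.00, at the 2-fold line, with 1.02 by its other probe. Of 4 measured NADPH oxidase genes, 0 reached 2-fold, and the median was 0.48.

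Smaller lists held small counts of genes at 2-fold, to be read against 2.88% higher and 2.03% lower over all genes. Of 15 apoptosis regulators, 2 were higher and 1 lower, the last being Bcl2, an inhibitor of cell death, at 509 and 240 and 2.45-fold lower. Casp4, an inflammatory caspase, had 1527 and 3762 and was 2.63-fold higher. Of 12 prostaglandin and leukotriene genes, 2 were higher, and Ptges, the inducible prostaglandin E synthase, was detected in tDC alone and at least 2.52-fold higher, while Ptgs2 was not above background. Pla2g7, which breaks down platelet-activating factor, was 2.31-fold higher. Of 7 complement genes, 1 was higher and 3 lower, and C1qc, detected in imDC alone, was at least 3.42-fold lower, while C1qb was 2.28-fold lower. Cd55, which protects cells from complement, was 2.18-fold higher. Of 25 lysosomal genes, 0 were higher and 2 lower. Ctsk, a collagen-cleaving cathepsin, had 9832 and 3905, 2.64-fold lower, and Gla, a galactosidase detected in imDC alone, was at least 2.08-fold lower. Of 23 cytokine and growth factor receptors, 3 were higher and 1 lower. Csf3r, the receptor of G-CSF, had 788 and 2050, 3.00-fold higher, Il1rap, a chain of the interleukin-1 receptor, was 2.12-fold higher, and Tgfbr2 had 8912 and 4515, 2.04-fold lower. Of 9 reference genes, Tfrc was the only 1 at 2-fold by the brightest probe, and the median was 0.01. Actb, Gapdh, Hprt, B2m and Ywhaz lay between -0.11 and 0.03, Tbp at 0.36, Rplp0 at 0.35 and Gusb at -0.44. The other probes of Gusb gave -0.80 and -1.04.

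The largest differences also took in genes outside the lists. Upward, Schip1, a cytoskeletal partner of schwannomin, had signals of 182 in imDC and 758 in tDC. It was 7.73-fold higher by its brightest probe, with 1.93 on the log2 scale by the other. Rdh12, a retinol dehydrogenase, was 4.96-fold higher and Slc39a4, a zinc importer, 4.66-fold higher. Detected in tDC alone were Mefv, the pyrin gene of familial Mediterranean fever, at least 5.74-fold higher, Pou2f2, a lymphoid transcription factor, at least 4.32-fold, and Col4a2, a basement membrane collagen, at least 3.59-fold. Downward, Sdc3, a heparan sulfate proteoglycan, had 5717 and 1717 and was 3.41-fold lower, and Zranb3, a DNA repair helicase, had 5001 and 1340 and was 3.91-fold lower. Eps8, an actin regulator, was 4.41-fold lower, Galnt9, a glycosyltransferase, 4.52-fold, and Ptgis, the prostacyclin synthase, 3.73-fold. Plxdc1, Selenbp1, Stac2 and Scel were 3.55-fold, 3.29-fold, 3.26-fold and 3.21-fold lower. Detected in imDC alone were Ccn4, a matricellular protein gene at least 4.55-fold lower, and Chd5, a chromatin remodeller at least 3.76-fold lower. Smagp, Plekha6 and Ocstamp, also detected in imDC alone, were at least 2.57-fold, 2.44-fold and 2.38-fold lower.

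The labelled cell type was checked against marker genes. Of 17 dendritic cell markers, 13 were measured, 0 were higher, 2 were lower and their summed signal was 68727 intensity units in imDC and 62255 in tDC. Cd74 was bright, and Zbtb46, a factor restricted among myeloid cells to dendritic cells, was detected at 1580 and 1973. Itgax, which encodes CD11c, had 1123 and 506 and was 2.29-fold lower in tDC. Flt3, Xcr1, Clec9a and Cd24a were not above background on either array.

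Markers of other cells moved with the comparison. Of 18 measured neutrophil markers, 8 were higher and 0 lower, and the median was 0.96. Mmp8, a collagenase of neutrophil granules, was not above background. Beside Chil1, Lcn2, Camp, Mmp9 and Csf3r, the granule proteases Prtn3 (681 and 1485, 2.53-fold), Ctsg (1.17 on the log2 scale) and Elane (1.04) were higher, and Mpo, of the same primary granules, lay at 0.96. Of 8 mast cell and basophil markers, 3 were higher and 0 lower, and the sum was 8898 and 18833. The rise of the sum rests mostly on Hdc, which makes histamine and had 1367 and 7421, 5.94-fold higher, though all 8 markers lay above 0. Cma1, a mast cell chymase, was 2.28-fold higher by its brightest probe, with 0.62 on the log2 scale by the other. Il4 was 2.59-fold higher. Without background correction Cma1 and Il4 were short of 2-fold, at 0.76 and 0.95 on the log2 scale. Mcpt1, Mcpt4, Ms4a2, Tpsab1 and Tpsb2 were not above background. Of 10 macrophage and monocyte markers, 3 were higher and 4 lower, with sums of 20185 and 36671. The rise of the sum rests on Cd14, which alone read 5363 in imDC and 23886 in tDC. The list's median was -0.44, with 6 of the 9 markers detected on both arrays below 0. Cd14, Ly6c1 and Adgre1 were higher, and Fcrls, F13a1, C1qb and C1qc lower. Fcrls, an Fc receptor-like gene, went from 7077 to 1753, 4.15-fold.

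The remaining marker lists had few measured members. Of 4 measured T and NK cell markers, Thy1 was 2.75-fold higher, and Cd3e, Cd3g, Cd4, Cd8a, Gzma, Gzmb, Klrb1c and Ncr1 were not above background. Of 3 B and plasma cell markers, Cd79b was 2.70-fold higher, and Cd79a, Ms4a1 and Pax5 were not above background. Of 2 stromal markers, Ccdc80 went from 2647 to 593, 4.85-fold lower, while Col1a1, Col1a2 and Col3a1 were not above background. Of 5 plasmacytoid markers and 3 erythroid or platelet markers, 0 reached 2-fold. The part of these other cells in the differences described above was not tested.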

How the data were processed

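Total RNA (550 ng) of 3 cultures, 1 for each state, was hybridized to 1-colour Illumina MouseRef-8 v2 bead arrays, and the submitters' processing notes name GenomeStudio 2011.1. The deposited table gives an average signal per probe, a linear intensity, and a detection p-value, per the file headers. The values processed by the authors are deposited as log2 intensities, with a median of 6.98 in each column, and their normalization method is not given in the sources used here. They served as an alternative.

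The signals were background corrected with normexp from the detection p-values (offset 16), quantile normalized over the 3 arrays and put on the log2 scale (neqc, limma 3.58.1, R 4.3.3). The brightest probe stood for a gene. The platform annotation gave 1 symbol to 23978 probes and several to 0, and 1719 probes are unnamed here. RefSeq's genes of GRCm38.p6 held the Entrez IDs of 23962. Il36g and Mb21d1 of the lists were read as Il1f9 and Cgas. Normalized folds differ from ratios of the printed signals because of the background step.

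The comparison, its 40 gene lists and its 9 marker lists were chosen with earlier results of these data known. Named were the 20 largest differences each way, the 8 largest bounds in either direction, as many as 6 members of a list at 2-fold, and every measured member of 5 lists (receptor signalling, NF-kB, costimulation, sterol synthesis and efflux). Further members named below 2-fold, or as not above background, were chosen after their values were seen. List medians are over members detected on both arrays. With 1 array for each state no test was possible, and so few arrays limit the precision. The steps were checked on simulated arrays, made from the imDC signals with known differences added. These were added only to probes well above background, so dim genes and bounds were not checked. Alternatives were no background correction, an offset of 50, median scaling, normalization of the 2 arrays alone, the authors' values, other detection filters and the mean of probes.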

Additional observations from a re-analysis of the deposited data

How the results depend on the processing

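The counts of genes at 2-fold depended most on the background correction. Without it, 148 genes were higher and 79 lower, against 227 and 160, and by the authors' processed values 155 were higher and 85 lower. The share of higher genes among those at 2-fold ran from 54.6% with median scaling to 65.2% without background correction, against 58.7%. Of 145 named genes at 2-fold, 34 went under it in at least 1 alternative, 30 of them without background correction and 25 by the authors' values, and 0 changed sign. The 34 were Bcl2, C1qb, Cd209a, Cd55, Cd70, Cd93, Clec5a, Cma1, Cxcl14, Cxcl3, Dusp2, E2f2, Gla, H2-DMa, Idi1, Il1rap, Il23a, Il4, Insig1, Lad1, Maff, Nfkbib, Nlrp3, Nod2, Ocstamp, Pfkp, Pla2g7, Plekha6, Ptges, Smagp, Sqle, Tfrc, Tgfbr2 and Tk1. The medians of 8 lists lying near 0 changed sign in some alternative. Values from dim probes are the least certain, since the disagreement of 2 probes was largest where the second was dim. No paired analysis was possible because each state has 1 array.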

Other observations

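Beyond the gene lists, 130 genes that were higher and 128 that were lower belong to none of them, and the genes named here were chosen after their values were seen. Trem1, a receptor that amplifies myeloid responses, had signals of 543 intensity units in imDC and 1133 in tDC, a log2 difference of 1.32, and its relative Trem3 had 636 and 1721 with 1.69. Treml4 was detected in tDC alone, at 497 against 156, and was at least 6.10-fold higher. Gpr84, a receptor for medium-chain fatty acids, had 1165 and 4849 with a difference of 2.20, and 2.28 by its second probe. Ffar4, a receptor for long-chain fatty acids, went the other way, from 4214 to 1702, a difference of -1.34. Hcar1, the lactate receptor, was detected in imDC alone and was at least 3.25-fold lower. Of single lipid enzymes, Aoah, which deacylates lipopolysaccharide, lay at 1.85, Lpcat2, of platelet-activating factor synthesis, at 1.69 and Sgms2, a sphingomyelin synthase, at 1.52. Cyp27a1, which makes an oxysterol that activates LXR, had 890 and 398 with a difference of -1.24, and -1.15 and -1.22 by its further probes.

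Secreted factors outside the lists included Inhba, the activin A chain, with signals of 8483 and 20713 and a difference of 1.26, and Edn1, endothelin 1, with 642 and 1541, 2.84-fold higher. Its receptor gene Ednrb was detected in tDC alone, at 527 against 146, and was at least 6.56-fold higher. Without the bound the log2 difference of Ednrb was 2.98, with 1.41 by its other probe. Tnfsf13b, the B cell factor BAFF, was lower at 944 and 450, with -1.14 and -1.18 by its 2 probes. Axl, a receptor that binds apoptotic cells through a bridging protein, had 18632 and 8464 with -1.17. Pros1, the gene of protein S, had 3620 and 1080 and was 3.50-fold lower. Epx, the eosinophil peroxidase gene, had 507 and 1189 with a difference of 1.51, and Ear6 and Prg3, also of eosinophil granules, lay at 1.17 and 1.09. The part of eosinophils or their precursors in these values was not tested. The genes highest in tDC of the 3 arrays included Asprv1, a skin protease, at 351 in imDC, 1296 in tDC and 153 in mDC, and Cldn11, a tight junction protein, at 192, 543 and 220.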
